A study of Mus musculus with 12 samples.

Results

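Mouse chromosome 5 carries 2 neighbouring groups of genes for CXC chemokines, small secreted proteins that guide leukocytes and are named after a pair of cysteines separated by 1 residue. The 10 genes described here were taken by symbol and matched through their Entrez identifiers, all 10 of them among the 27179 gene IDs counted. They are Cxcl5, Ppbp, Pf4, Cxcl3, Cxcl15, Cxcl1 and Cxcl2 in the first group, and Cxcl9, Cxcl10 and Cxcl11 in the second. The genes were selected on their counts in these same libraries, so levels and patterns are given as descriptions, without tests.

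The cells were NIH3T3, an immortalized mouse embryonic fibroblast line, in which the endogenous RelA gene was deleted (RelA-/-) and RelA was supplied as a fusion to the fluorescent protein DsRed (RelA-DsRed). All samples shared this genotype. Microfluidic devices held the cells for 2 h, and the 4 labelled groups of 3 samples received 0.2 ng/mL of the cytokine IL-1β, 100 ng/mL of LPS, 0.2 ng/mL of PAM (an abbreviation the labels do not expand) or media alone. The sources used here do not give the promoter that drives the fusion or say whether the line is a single clone. All 9 count tables labelled LPS, PAM or media repeated the table of IL-1 replicate 3 exactly, so the 3 IL-1 libraries were the only ones with counts of their own. Nothing below shows whether a gene went up or down with IL-1, since no untreated counts were analysed here.

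IL-1 receptor signalling releases the transcription factor NF-κB, of which RelA is a subunit, into the nucleus, and Cxcl1, Cxcl2 and Cxcl10 are textbook targets of it in fibroblasts and macrophages. The chemokines with the residues glutamate, leucine and arginine (ELR) just before the first cysteine attract neutrophils through the receptor CXCR2. Cxcl9, Cxcl10 and Cxcl11 lack these residues, are induced by interferons, and attract activated T cells through the receptor CXCR3. Pf4, platelet factor 4, also lacks them and is stored in platelet granules.

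The coding sequences around the cysteine pair were read from GENCODE M21 transcripts, since they define the 2 classes. In each 24-base stretch below, 5′ to 3′ on the coding strand, capitals mark the codons of the 2 cysteines and, where present, the ELR codons before them.
Cxcl5: gcaacgGAGCTGCGTTGTgttTGC
Ppbp: tatatcGAACTGCGCTGCagaTGT
Pf4: gatggagatcttagcTGTgtgTGT
Cxcl3: gccagtGAGCTGCGCTGTcagTGC
Cxcl15: actcaaGAGCTACGATGTctgTGT
Cxcl1: gccaatGAGCTGCGCTGTcagTGC
Cxcl2: gccagtGAACTGCGCTGTcaaTGC
Cxcl9: ataaggaatgcacgaTGCtccTGC
Cxcl10: gcaaggacggtccgcTGCaacTGC
Cxcl11: ttcaaacaggggcgcTGTcttTGC

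ELR codons were present in 6 genes and absent from 4. The 6 are Cxcl1, Cxcl2, Cxcl3, Cxcl5, Cxcl15 and Ppbp, all in the first group, and are called neutrophil-attracting below. The stretch lies in exon 2 of every gene except Cxcl11, where it lies in exon 3. Over the whole coding sequence, Cxcl2 and Cxcl3 were the closest pair, with 89.8% of aligned bases identical. Cxcl1 shared 75.6% with Cxcl2 and 72.6% with Cxcl3. Cxcl10 shared 54.5% with Cxcl11, no more than the 55.3% it shared with Cxcl1 of the other class.

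Upstream sequence is shown for the 3 close relatives Cxcl1, Cxcl2 and Cxcl3, whose levels differed widely, and for Cxcl10, which had the highest level of the second group. Each line gives the 250 bases before the annotated start, from RefSeq (GRCm38.p6), in the direction of transcription. Positions are chr5:90890995-90891244 (plus strand) for Cxcl1, chr5:90903649-90903898 (plus strand) for Cxcl2, chr5:90785851-90786100 (plus strand) for Cxcl3 and chr5:92348890-92349139 (minus strand) for Cxcl10. Capitals mark matches on either strand to 3 motifs: a 10-letter NF-κB motif (GGG, any 3 bases, then TTCC), its 9-letter form (GGG, any 2 bases, then TTCC) and a pair of interferon-response half-sites (GAAA, any 2 bases, then GAAA).
Cxcl1: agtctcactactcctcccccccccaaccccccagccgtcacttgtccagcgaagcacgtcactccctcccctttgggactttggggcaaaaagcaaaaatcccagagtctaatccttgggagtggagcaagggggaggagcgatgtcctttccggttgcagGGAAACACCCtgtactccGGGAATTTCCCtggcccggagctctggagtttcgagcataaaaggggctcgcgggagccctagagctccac
Cxcl2: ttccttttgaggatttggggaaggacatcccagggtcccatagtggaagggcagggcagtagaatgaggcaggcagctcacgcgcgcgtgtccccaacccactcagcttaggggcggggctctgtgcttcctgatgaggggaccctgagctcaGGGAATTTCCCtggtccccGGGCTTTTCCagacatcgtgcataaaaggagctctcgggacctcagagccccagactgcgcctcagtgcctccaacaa
Cxcl3: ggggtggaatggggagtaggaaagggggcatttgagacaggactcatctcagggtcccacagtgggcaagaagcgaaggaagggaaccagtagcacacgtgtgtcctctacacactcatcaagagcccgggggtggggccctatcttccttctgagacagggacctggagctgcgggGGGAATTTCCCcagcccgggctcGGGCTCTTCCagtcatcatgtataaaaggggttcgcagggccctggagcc
Cxcl10: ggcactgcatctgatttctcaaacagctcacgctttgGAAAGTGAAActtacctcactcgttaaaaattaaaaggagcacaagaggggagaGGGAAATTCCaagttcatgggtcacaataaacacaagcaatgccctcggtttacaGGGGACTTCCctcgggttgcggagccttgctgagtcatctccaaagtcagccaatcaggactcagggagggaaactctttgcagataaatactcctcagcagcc

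The 10-letter NF-κB motif occurred in 4 of the 8 members with an entry, namely Cxcl1, Cxcl2, Cxcl3 and Cxcl10, and in 4.65% of all 32851 promoter entries of the same length. Counted from the annotated start, the word GGGAATTTCC began at position -71 in Cxcl1, -97 in Cxcl2 and -73 in Cxcl3, and in each case a reverse-strand match overlapped it, shifted by 1 base. The 9-letter form occurred in Cxcl9 and Cxcl10 and in 4.98% of all entries; the match in Cxcl10 lies inside a 10-letter match. The half-site pair occurred in Cxcl10 alone of the 8, beginning at position -213, and in 2.98% of all entries. None of the 3 motifs occurred in this window of Cxcl15, Pf4 or Ppbp, and Cxcl5 and Cxcl11 had no entry. The motifs were chosen with the levels known, and a match describes letters, not binding. Aligned over these 250 bases, Cxcl2 and Cxcl3 were 56.1% identical, Cxcl1 and Cxcl3 52.0%, and Cxcl1 and Cxcl2 50.5%. The other pairs of members ran from 43.1% (Pf4 and Cxcl3) to 50.4% (Ppbp and Cxcl1, and also Cxcl9 and Cxcl10). The value for Cxcl1 and Cxcl2 was thus about that of the highest other pairs.

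**Figure D1:**
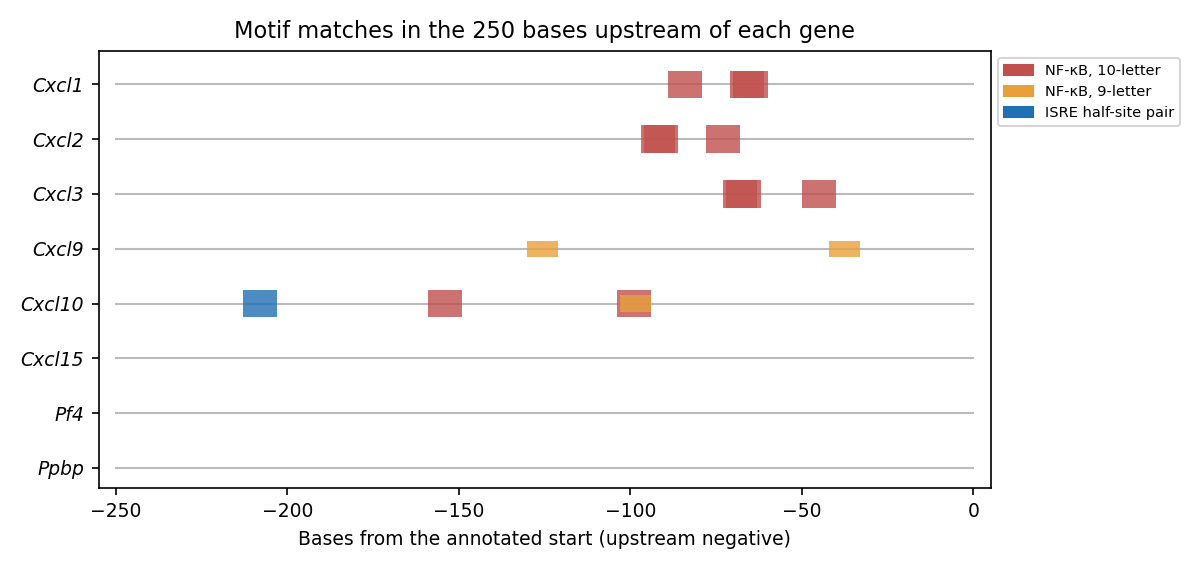
Matches to the 3 motifs in the 250 bases upstream of the 8 members with a promoter entry, by distance from the annotated start in bases (x axis). Red, amber and blue blocks mark the 10-letter NF-κB motif, the 9-letter form and the interferon-response pair; overlapping matches appear darker, and Cxcl10 is the gene with all 3 kinds.

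The IL-1 libraries held 17254518, 18091073 and 18578859 counts in replicates 1 to 3. Levels are counts per 1000000 counts of the library (CPM), with means ± SD over 3 libraries. The labels leave unsaid whether these were separate cultures, and the SD can therefore be technical. Genes at 1 CPM or above in each library are called detected. All 10 fibroblast markers were detected, with summed levels between 9219 and 9472 CPM. None of the 8 neutrophil, 7 lung epithelium or 5 endothelium markers was detected, with summed levels of at most 0.464, 0.811 and 0.927 CPM. Of the leukocyte and macrophage markers 3 of 9 were detected (Cd14, Csf1r and Cd68, summed level of the list 30.1 to 39.3 CPM), while Fcgr1 and Cd3e had 0 counts. In bulk RNA such as this, more cells with a transcript and more transcript per cell cannot be told apart.

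Of the 10 chemokine genes, 5 were detected: Cxcl1, Cxcl5, Cxcl10, Ppbp and Cxcl11. Across all gene IDs the detected share was 41.3%. The 5 comprised 2 of the 3 interferon-inducible and 3 of the 6 neutrophil-attracting genes. Pf4 and Cxcl15 had no count in any library, and Cxcl2, Cxcl3 and Cxcl9 were below the limit. Detected and undetected genes were interspersed along the chromosome, with Cxcl1 between Cxcl15 and Cxcl2.

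**Figure D2:**
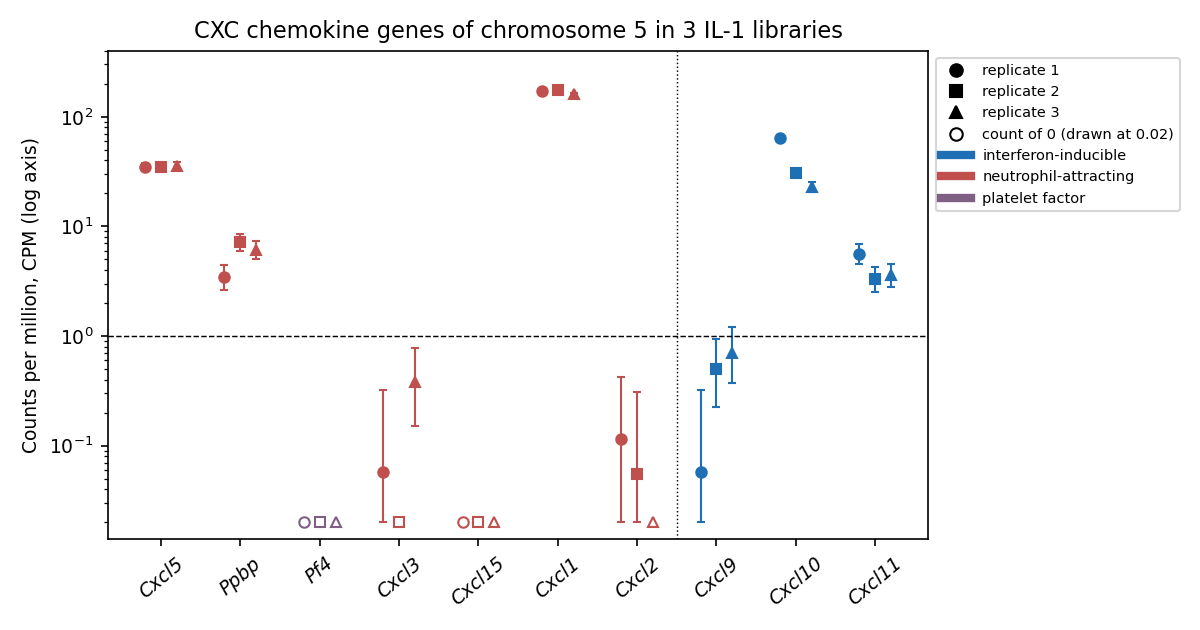
CPM (log axis) of the 10 chemokine genes in the 3 IL-1 libraries, in order along the chromosome, with the first gene group left of the dotted line and the second right of it. Bars are exact 95% Poisson intervals of the counts, cut off at 0.02, open symbols at 0.02 are counts of 0, and the dashed line is 1 CPM; replicate 1 is highest of the 3 for Cxcl10 and Cxcl11 and lowest for Ppbp.

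Cxcl1 encodes the neutrophil chemoattractant also called KC (Entrez 14825, plus strand, chromosome 5, 90891245 to 90893121, GRCm38). It had 2984, 3180 and 2974 counts, or 172.9, 175.8 and 160.1 CPM, in replicates 1 to 3. The exact 95% Poisson interval of replicate 3 (154 to 166 CPM) lay below those of replicates 1 (167 to 179 CPM) and 2 (169.7 to 182 CPM). Of all detected genes, 10.6% had a higher mean. The mean was 170 ± 8.37 CPM, or 178 ± 8.78 CPM per kb of merged exons, the scale on which genes of different length are compared here. None of its 36-base stretches occurred in a transcript of another gene, its relatives in the cluster included.

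Cxcl2 and Cxcl3, the nearest relatives of Cxcl1 in sequence, were at the limit of what these libraries can show. Cxcl2, which attracts neutrophils (Entrez 20310, plus strand, 90903899 to 90905938), had 2, 1 and 0 counts in replicates 1 to 3, or 0.0571 ± 0.0580 CPM. Cxcl3 (Entrez 330122, plus strand, 90786101 to 90788093) had 1, 0 and 7 counts, or 0.145 ± 0.203 CPM. Both lay far below Cxcl1 in every library, although the start of Cxcl2 is separated from the end of Cxcl1 by 10.8 kb with no gene of the table between them. Counting may have lost some reads of this pair, since 6.98% of the 36-base stretches of Cxcl2 occur in Cxcl3 and 7.65% of those of Cxcl3 in Cxcl2, and the sources used here do not say how reads that map to several places were handled. At 75 bases the shares were 3.48% and 3.82%.

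Cxcl5, another CXCR2 ligand (Entrez 20311, plus strand, 90759298 to 90761625), was the steadiest member. It had 598, 631 and 666 counts, or 34.7, 34.9 and 35.8 CPM, in replicates 1 to 3. The 3 values nearly coincided: 95.5% of the 9719 genes with a mean of 5 CPM or more had a larger SD of log2(CPM + 0.5). Its mean was 35.1 ± 0.633 CPM, or 22.3 ± 0.402 CPM per kb.

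Ppbp, pro-platelet basic protein, is the precursor of the neutrophil chemoattractant that platelets release (Entrez 57349, plus strand, 90768518 to 90770063). It had 60, 130 and 114 counts, or 3.48, 7.19 and 6.14 CPM, in replicates 1 to 3. Replicate 1 was the low one, at 0.522 times the mean of the others, and its exact 95% Poisson interval of 2.65 to 4.48 CPM did not meet theirs of 6.004 to 8.53 and 5.06 to 7.37 CPM. Such intervals cover counting error only, since reads amplified without molecular identifiers are not independent molecules. Of the genes with a mean of 5 CPM or more, 0.340% had a larger SD on the log2 scale. On the chi-square scale, which sets the spread against counting error, 22.3% of these genes varied more. The mean was 5.60 ± 1.91 CPM, or 5.17 ± 1.77 CPM per kb.

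Pf4, the neighbour of Ppbp at a distance of 2.37 kb and its companion in platelet granules, had 0 counts in all 3 libraries (Entrez 56744, plus strand, 90772435 to 90773383). Cxcl15, known as lungkine from mouse lung epithelium (Entrez 20309, plus strand, 90794534 to 90803067), also had none. A count of 0 allows up to 3 counts, or 0.174, 0.166 and 0.161 CPM in replicates 1 to 3, and 0.0556 CPM over the 3 libraries together. The plot of the members by library uses 2-sided exact 95% Poisson intervals for nonzero counts; for a count of 0 their upper ends would be 0.214, 0.204 and 0.199 CPM. Of 8 megakaryocyte and platelet markers 1 was detected, Itga2b with 19.3, 19.9 and 20.6 CPM, while the platelet receptor genes Gp9, Gp1ba and Gp6 had 0 counts. Ppbp was thus detected in libraries where Pf4 and most other platelet markers were not, and the part of platelet-lineage transcripts in its level was not tested.

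The interferon-inducible genes lie 1415 kb farther along, on the minus strand. Cxcl10, also called IP-10 (Entrez 15945, 92346638 to 92348889), was their most abundant member. It had 1111, 555 and 425 counts, or 64.4, 30.7 and 22.9 CPM, in replicates 1 to 3. The exact 95% intervals of 60.7 to 68.3, 28.2 to 33.3 and 20.8 to 25.2 CPM were all separate. Replicate 1 was 2.40 times the mean of the others (log2 ratio 1.25), and 0.0617% of the genes with a mean of 5 CPM or more had a larger SD of log2(CPM + 0.5). The mean was 39.3 ± 22.1 CPM, or 25.9 ± 14.5 CPM per kb.

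Cxcl11, another CXCR3 ligand (Entrez 56066, 92359544 to 92363296), followed at a lower level. It had 97, 60 and 67 counts, or 5.62, 3.32 and 3.61 CPM, in replicates 1 to 3. Replicate 1 was again highest, at 1.62 times the mean of the others, and its interval of 4.56 to 6.86 CPM met that of replicate 3 (2.79 to 4.58 CPM) at its edge but not that of replicate 2 (2.53 to 4.27 CPM). The gene is a transcribed pseudogene in the RefSeq table of GRCm38.p6, and the GENCODE coding model skips 2 bases, 92363177 to 92363178, so its counts are transcript levels and carry no statement about protein. The mean was 4.18 ± 1.26 CPM, or 1.10 ± 0.331 CPM per kb.

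Cxcl9, the remaining CXCR3 ligand (Entrez 17329, 92321331 to 92328079) and in mouse macrophages chiefly a target of interferon-γ, had 1, 9 and 13 counts in replicates 1 to 3, or 0.418 ± 0.328 CPM. Replicate 1, the highest library for Cxcl10 and Cxcl11, held the fewest reads of Cxcl9. Its interval, 0.00147 to 0.323 CPM, met that of replicate 2 (0.227 to 0.944 CPM) and not that of replicate 3 (0.373 to 1.20 CPM). All 3 values lay below the 1 CPM limit.

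Ordered by mean CPM per kb of merged exons, the detected genes ran Cxcl1, Cxcl10, Cxcl5, Ppbp and Cxcl11. Cxcl1 stood above every other member in every library, 4.28 to 11.2 times Cxcl10 and 7.38 to 8.33 times Cxcl5 per kb. Cxcl10 and Cxcl5 could not be ordered, because the ratio of Cxcl10 to Cxcl5 per kb was 1.93, 0.911 and 0.661 in replicates 1 to 3. Ppbp (3.21 to 6.64 CPM per kb) lay above Cxcl11 (0.874 to 1.48 CPM per kb). Per kb of the first-numbered GENCODE transcript alone, Cxcl11 reached 2.10 to 3.56 and the ranges met. On that scale Cxcl10 was at 35.9 ± 20.2 CPM per kb of transcript, and Cxcl1, Cxcl5 and Ppbp kept their values. Which transcript was the main one expressed was not tested. With retained introns counted as exon, Cxcl1 was at 90.5 CPM per kb and Cxcl10 at 17.5.

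Summed over the class, the interferon-inducible genes had 70.1, 34.5 and 27.2 CPM in replicates 1 to 3 (43.9 ± 22.9), against 211, 218 and 202 CPM (211 ± 7.76) for the neutrophil-attracting genes. The neutrophil-attracting sum was thus the larger in all 3 libraries and nearly constant, and the interferon-inducible sum was highest in replicate 1. Each sum came mostly from 1 gene, Cxcl1 (mean 170 CPM) and Cxcl10 (mean 39.3 CPM). Smaller members differed from their sums: Ppbp and Cxcl9 were both lowest in replicate 1. The log2 ratio of interferon-inducible over neutrophil-attracting CPM was -1.59, -2.66 and -2.90 (-2.38 ± 0.69), and -3.05 ± 0.72 per kb of merged exons. Of all counts of the 10 genes, Cxcl10 took 22.9%, 12.2% and 9.96% in replicates 1 to 3, and Cxcl1 took 61.5%, 69.6% and 69.7%. The exact 95% binomial intervals for Cxcl1 were 60.1% to 62.8%, 68.3% to 71.0% and 68.3% to 71.1%. The share depends on all 10 genes: the CPM of Cxcl1 itself was not lowest in replicate 1, where Cxcl10 was highest.

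**Figure D3:**
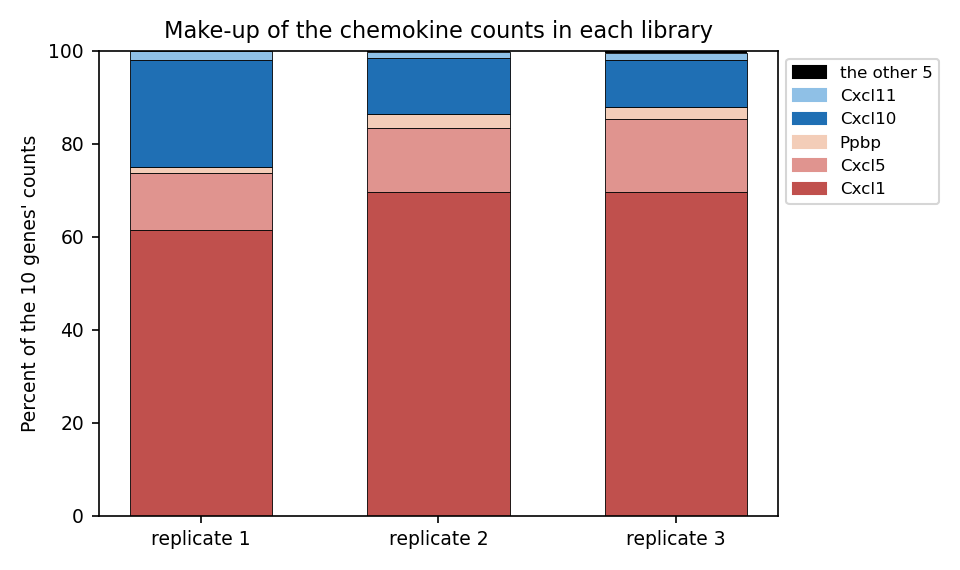
Percent of the summed counts of the 10 chemokine genes (y axis) that came from each gene in the 3 IL-1 libraries. Blues are interferon-inducible and reds neutrophil-attracting genes, with the other 5 genes in black; Cxcl10 fills 22.9% of the bar of replicate 1 and 9.96% of that of replicate 3.

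Of the 5 detected members, Cxcl10 and Cxcl11 were highest in replicate 1, as were 45.7% of all 11224 detected genes, and Cxcl5 and Ppbp were lowest in it, as were 30.2%. Both detected interferon-inducible genes exceeded the mean of the other libraries by 1.5-fold or more in replicate 1, as did 2.05% of detected genes. Ppbp lay at or below the mean divided by 1.5, as did 1.15%. The remaining interferon-inducible gene, Cxcl9, was not detected and went the other way, with 1, 9 and 13 counts in replicates 1 to 3. The median log2 ratio of all detected genes for replicate 1 was 0.04, and with TMM or relative log expression factors it was 0.00 and the share highest in replicate 1 was 37.5% or 37.1%. The highest library of Cxcl1, Cxcl5, Cxcl10 and Cxcl11 and the lowest of Ppbp stayed the same under these factors.

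Known interferon-stimulated genes outside the cluster had, like Cxcl10, their highest value in replicate 1, by amounts that ranged widely. All 20 listed genes were detected (41.3% of all gene IDs were), and all 20 were highest in replicate 1, against 45.7% of detected genes. With TMM or relative log expression factors 18 were, against 37.5% or 37.1%. In replicate 1, 12 of the 20 exceeded the mean of the other libraries by 1.5-fold or more, against 2.05% of detected genes, and the median was 1.87-fold. The list was drawn up after earlier results of these data had shown interferon-stimulated genes high in replicate 1. The counts therefore describe a pattern already seen and do not test it. The 3 with the highest mean level spanned a range: the GTPase gene Gbp2 had 246, 206 and 191 CPM, Bst2, whose product tethers virions, had 173.1, 170.1 and 170.4 CPM, and the GTPase gene Irgm1 had 126, 101 and 94.4 CPM in replicates 1 to 3. Bst2 was thus nearly level across the libraries while Gbp2 and Irgm1 had a clear maximum in replicate 1.

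The detected gene nearest in pattern to Cxcl10, by Euclidean distance between centred log2(CPM + 0.5) values over the 3 libraries, was Ifi44 with 17.0, 7.90 and 5.76 CPM in replicates 1 to 3 (distance 0.00985). Cmpk2 (0.0689), Ifit3 (0.121), Ifit3b (0.182) and Ifi47 (0.194) came next, from the 9719 genes with a mean of 5 CPM or more. All 5 are known as interferon-stimulated genes, and Ifit3 and Ifit3b are near-identical copies between which reads may be split. With 3 libraries a pattern has few degrees of freedom. For Cxcl1 the 5 nearest genes were Drg1, Ctdsp1, Poglut1, 1500011B03Rik and Slc19a1, all within a distance of 0.00389, and Drg1 had 221, 225 and 204 CPM.

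**Figure D4:**
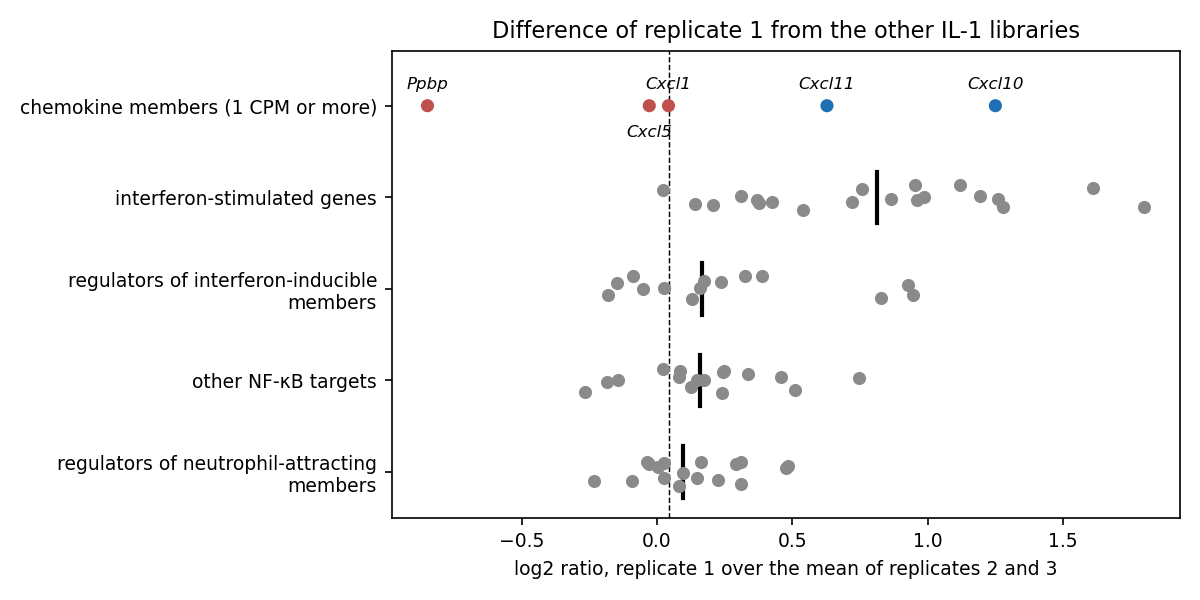
The log2 ratio of replicate 1 to the mean of replicates 2 and 3 (x axis) for the 5 detected chemokine genes (blue interferon-inducible, red neutrophil-attracting) and for detected genes of 4 lists (grey points, each 1 gene; black bars are medians). The dashed line is the median of all detected genes, 0.04. Cxcl10 (1.25), Cxcl11 (0.63) and also Cxcl1 (0.04) lie within the wide range of the interferon-stimulated genes (0.02 to 1.80). Cxcl1 and Cxcl5 lie next to the dashed line.

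Genes known to act upstream of the interferon-inducible members were detected in 14 of 16 cases (41.3% of all gene IDs were), the exceptions being the ligand genes Ifnb1 and Ifng with 0 counts. Of the 14, 9 were highest in replicate 1 (45.7% of all detected genes were). With TMM or relative log expression factors the count stayed at 9, against 37.5% or 37.1%. In replicate 1, 3 of the 14 exceeded the other libraries by 1.5-fold or more (2.05% did). Among them were Stat2, a signal transducer of type I interferon receptors, with 55.0, 26.8 and 34.8 CPM in replicates 1 to 3, and Irf7, an interferon regulatory factor gene, with 9.21, 4.48 and 4.74 CPM. Both were named after their values had been seen. The 3 with the highest mean were the kinase gene Tbk1 (159, 139 and 143 CPM), the receptor gene Ifngr2 (139, 153 and 143 CPM) and the kinase gene Jak1 (135, 107 and 108 CPM). Stat2 and Irf7, like Cxcl10, were thus highest in replicate 1, while of the 4 receptor genes Ifnar1 was highest there and Ifngr2, Ifngr1 and Ifnar2 were highest in replicate 2.

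Genes known to act on the neutrophil-attracting members were all detected, 17 of 17 with a matched symbol, against 41.3% of all gene IDs. This list is not exclusive to that class, since Cxcl10 is a target of NF-κB as well. In replicate 1, 8 of the 17 were highest, a share of 47.1% against 45.7% of all detected genes. With TMM or relative log expression factors the count stayed at 8, against 37.5% or 37.1%. None of the 17 exceeded the other libraries by 1.5-fold in replicate 1 (2.05% of detected genes did). The 3 with the highest mean were Elavl1, whose RNA-binding product stabilises chemokine mRNAs (434, 416 and 437 CPM), the NF-κB inhibitor gene Nfkbia (166, 168 and 145 CPM) and the adaptor gene Myd88 (143, 159 and 146 CPM). The IL-1 receptor gene Il1r1 had 50.1, 48.3 and 51.6 CPM. Rela itself, for which counts per gene do not separate the fusion from the deleted allele, had 37.1, 30.5 and 38.9 CPM. Nfkbiz, whose product IκBζ is an NF-κB cofactor, had 30.6, 24.8 and 18.8 CPM and so varied more than Cxcl1 did.

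Of 16 other NF-κB target genes, all were detected (41.3% of all gene IDs were). In replicate 1, 11 were highest (45.7% of detected genes were), or 10 with TMM factors (37.5%), and 1 exceeded the other libraries by 1.5-fold or more (2.05% did), Il6 with 9.91, 4.37 and 7.05 CPM. Their median was 1.12-fold. The 3 with the highest mean were the adhesion gene Vcam1 (2053, 1911 and 1855 CPM), the growth factor gene Csf1 (711, 549 and 651 CPM) and the monocyte chemoattractant gene Ccl2 (458, 523 and 518 CPM). Ccl2 was lowest in replicate 1 and Csf1 highest there, so these targets did not move as a block.

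Of 9 chemokine receptor genes, which include receptors of other chemokines, 1 was detected (41.3% of all gene IDs were). It was Ackr3, a scavenging receptor that binds CXCL11 and CXCL12, with 67.2, 63.9 and 67.3 CPM in replicates 1 to 3. Cxcr2, the receptor of the neutrophil-attracting ligands, had 6, 0 and 0 counts, and Cxcr1 1, 0 and 0. Cxcr3, the receptor of the interferon-inducible ligands, had no count, nor did Cxcr4 and Ackr1. Among 6 other chemokine genes 3 were detected, Cx3cl1 (531, 377 and 421 CPM), Cxcl12 (52.5, 56.9 and 57.9 CPM) and Cxcl16 (10.9, 13.2 and 9.63 CPM), and Cxcl14 had no count.

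Other genes within 500 kb of either chemokine group were used to see how far the library differences extended along the chromosome. Of 31 such neighbours, 17 were detected, 6 of 13 around the first group and 11 of 18 around the second, against 41.3% of all gene IDs, and 6 had no count. Of the 17, 6 were highest in replicate 1 (45.7% of all detected genes were), and the fold of replicate 1 over the others ran from 0.806 to 1.25. Both Cxcl10 (2.40) and Cxcl11 (1.62) lay above that range and Ppbp (0.522) below it, while Cxcl1 (1.03) and Cxcl5 (0.980) lay within it. The 8 neighbours with the highest levels were G3bp2, Ankrd17, Ereg, Nup54, Areg, Rchy1, Uso1 and Sdad1. The EGF-family ligand gene Ereg, which follows Cxcl2 with Mthfd2l and Epgn between them, had 124, 113 and 116 CPM, and Areg had 60.2, 71.5 and 71.9 CPM in replicates 1 to 3. Nup54, a nuclear pore gene beside Cxcl11, had 95.3, 105 and 95.9 CPM, and G3bp2, a stress granule gene, had 348, 338 and 325 CPM.

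**Figure D5:**
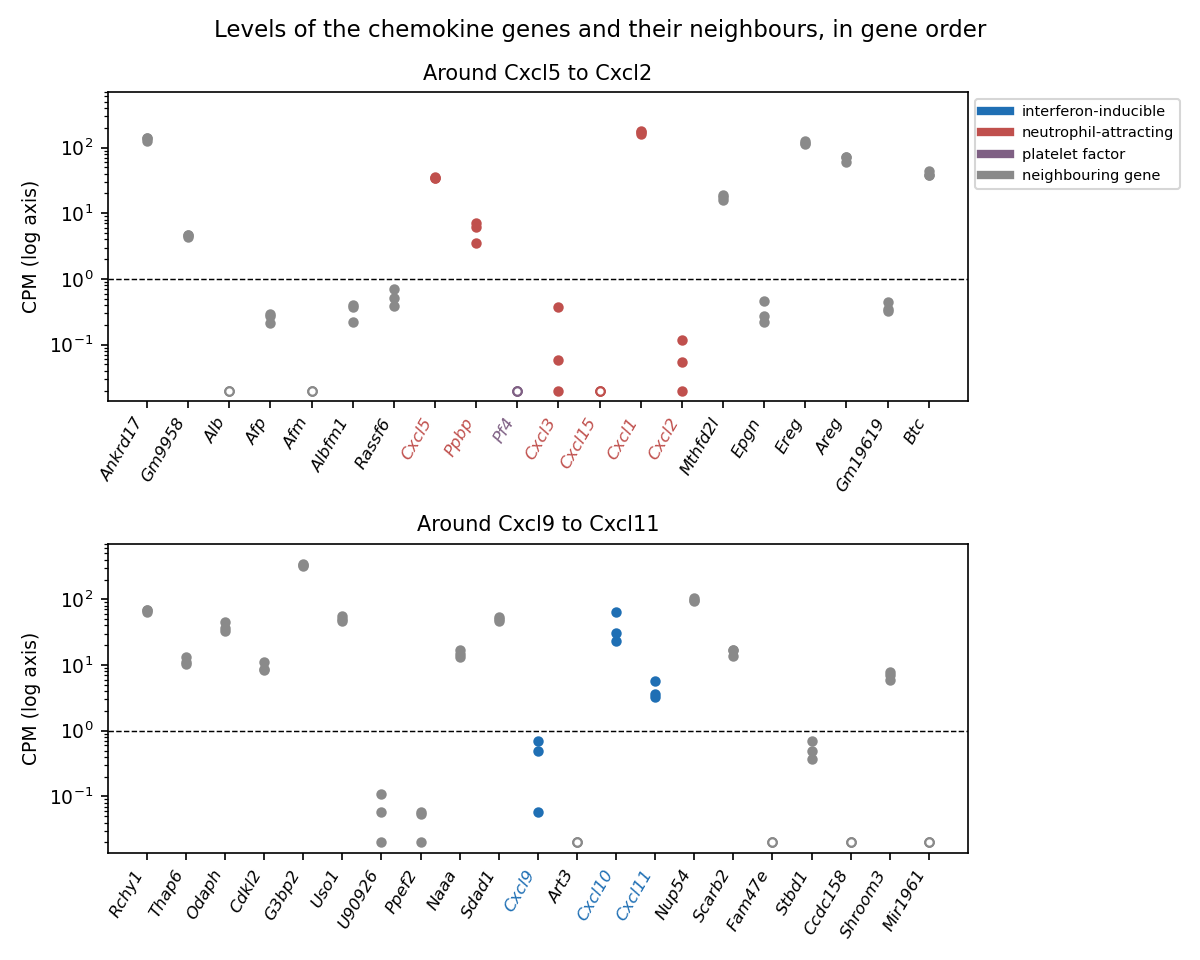
CPM (log axis) in the 3 IL-1 libraries (points) for the chemokine genes and all neighbours within 500 kb, in gene order, around the first group (top) and the second (bottom). Counts of 0 are drawn at 0.02, open where all 3 are 0, and the dashed line is 1 CPM; Cxcl1 sits between Cxcl15 (0 counts) and Cxcl2 (at most 2 counts), and the points of Cxcl10 are spread farther than those of the detected neighbours in its panel.

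Art3 spans Cxcl10 and Cxcl11 on the opposite strand (92331799 to 92414628) and had 0 counts. Of the 36-base stretches of Cxcl10, 9.25% also occur in transcripts of Art3, read on either strand. The first-numbered transcript of Cxcl11 shared no such stretch with Art3. The sources used here do not say whether counting used strand, and the part of this overlap in the counts of Cxcl10 and Cxcl11 was not tested.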

How the data were processed

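Poly(A) RNA was measured in 12 labelled samples, and 3 IL-1 libraries were analysed. Passages numbered 20 or fewer, and RNA in detergent lysate was reverse transcribed, pre-amplified over 10 cycles and tagmented, per the labels' protocols, which mention no molecular identifiers. The authors deposited raw counts per Entrez gene ID. The submitters' processing notes name CASAVA, STAR, featureCounts and mm10; the sources used here do not give versions, annotation, strandedness or multi-mapping rules. Of the tables, 9 were exact copies of IL-1 replicate 3 and were left out.

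Symbols (25275 IDs) came from RefSeq, GRCm38.p6, and exon lengths from GENCODE M21 without retained-intron transcripts. CPM were computed on library totals; 1 CPM in every library was called detected. Ratios of libraries use log2(CPM + 0.5); folds use CPM. Intervals are exact (Poisson or Clopper-Pearson, 95%), and a floor is 3 counts; both cover counting error only. TMM and relative log expression factors came from edgeR 4.0.16 (R 4.3.3). Sequences were aligned globally (Biopython 1.88; match 2, mismatch -1, gap opening -4, extension -1). No group comparison or test could be run. The search for genes nearest in pattern and the Poisson intervals were checked on simulated counts with Poisson error only. The libraries vary more than that, with a median chi-square per degree of freedom of 4.41. The other calculations were not checked by simulation.

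The members and lists were chosen with earlier results of these data known. Named besides the members are the 8 highest neighbours within 500 kb, the 5 genes nearest to Cxcl10 and to Cxcl1, all receptors binding members, and, from each list other than the cell type markers, the 3 genes with the highest mean and defining genes at 0; other named genes were chosen after their values were seen. Levels of most list genes are not printed; all listed genes stay in the counts and medians. Python 3.11.15, numpy 2.4.6, pandas 2.3.3 and scipy 1.17.1 were used.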

Additional observations from a re-analysis of the deposited data

How the results depend on the processing

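No paired analysis was possible because there was no second group with distinct counts. Of 107 recomputed values for 21 results, 104 lay within set limits, and none changed direction. The limit was the spread between libraries, or 1.5 times for counts of genes. For the log2 ratio of Cxcl10 it was instead a counting error of 0.124. Of the 107 values, 50 came from leaving out 1 library. The log2 ratio of Cxcl10 in replicate 1 over the others was 1.06 to 1.47 when replicate 3 or replicate 2 was left out, and it has no value without replicate 1. Within 250 kb in place of 500 kb, 9 neighbours were detected in place of 17, by construction of the narrower window. A mean over 3 libraries stays within 1 SD when any 1 is dropped, whatever the values, so those alternatives say little about stability. Pf4 and Cxcl15 had 0 counts, so their means stayed at 0 under every setting. Adding Pf4 to a sum likewise changed nothing. The 104 values therefore include many that could not have moved, and their number overstates stability. Without 1 library the mean ranged from 0.0290 to 0.217 CPM for Cxcl3 (lowest without replicate 3), 0.0276 to 0.0856 CPM for Cxcl2 (lowest without replicate 1) and 0.278 to 0.599 CPM for Cxcl9 (lowest without replicate 3), shifts of over 1.5 times. Depth limits Cxcl2, Cxcl3, Cxcl9, Pf4 and Cxcl15, for which each library held at most 13 reads.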
